A study of Mus musculus with 6 samples.

Results

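Small nucleolar RNAs (snoRNAs) are short nuclear RNAs that guide chemical modification of ribosomal RNA or help to cut its precursor. Mouse blastocysts held 73 expressed snoRNA genes among the 1507 genes of that type in the table of expression values. A gene entered the set when the GENCODE M21 annotation gave it the type snoRNA and when its level reached 1 FPKM (fragments mapped to a gene, scaled by gene length and by all mapped fragments) in at least 3 of the 6 libraries. The set was thus selected on measured levels in the same libraries that are compared here. The rule names no group, but 2 members, Gm24452 and Gm24044, met it through the libraries of 1 group only.

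The libraries were made from wild-type ICR mouse embryos cultured from the 2-cell stage to the blastocyst in CZB medium. All embryos received human Fallopian tube extracellular vesicles. Those of the oEV-EMT group came from women with endometriosis. Those of the oEV-ctrl group came from control women, described in the sample labels as having uterine fibroids and in the study's methods as treated for cervical intraepithelial neoplasia. Each group had 3 libraries of 10 pooled blastocysts, and the labels do not say whether they came from separate cultures, so p-values measure the spread between these libraries only. RNA was selected by its poly(A) tail with oligo(dT). The comparison asks which snoRNA levels differ between blastocysts cultured with the 2 kinds of vesicle.

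Box C/D snoRNAs carry the short C and D boxes near their ends and guide 2′-O-methylation with the methyltransferase fibrillarin. Box H/ACA snoRNAs fold into hairpins joined by an H box, end in ACA, and guide pseudouridylation with dyskerin. In mice most of both kinds lie in introns of other genes, named host genes, and are cut out of the spliced intron and trimmed. Mature snoRNAs have no poly(A) tail, and every gene of the set was shorter (62 to 246 bases) than the cDNA fragments that the library protocol selected. Whether a value counts mature snoRNA, a tailed precursor or an intron left in the RNA of the host cannot be told apart in this table. In pooled blastocysts, fewer cells of a type and less RNA per cell cannot be told apart either.

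Of the 73 genes, 29 were box C/D by symbol (25 named Snord and 4 named Rnu3b, which encode U3), 13 were box H/ACA (Snora) and 31 had only a provisional Gm symbol. The table lists 108 box C/D genes, 43 box H/ACA genes and 1342 Gm genes of this type, so 26.9%, 30.2% and 2.31% of them entered the set. Another 14 had other symbols and none of them entered. Across all 1507 genes, 1073 were listed at 0 in every library. A host gene that met the same level filter surrounded 22 box C/D, 11 box H/ACA and 30 Gm members, another 5 members had a host below it, and 5 had no annotated gene around them on their strand.

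Sequences are shown for several of the members with the smallest p-values in each direction and for Snora70, which had the smallest among box H/ACA members. They are also shown for the most abundant member and for the U3 gene that 4 members share, because the results below turn on them. They are GENCODE M21 transcripts on GRCm38 (the same assembly as mm10), written 5′ to 3′ on the strand of the gene. In box C/D members and those with the same letters, capitals mark TGATG within the first 25 bases, part of the C box, and CTGA within the last 15, the D box:
Snord49b: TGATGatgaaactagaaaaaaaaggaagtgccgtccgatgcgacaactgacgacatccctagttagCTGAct
Snord16a: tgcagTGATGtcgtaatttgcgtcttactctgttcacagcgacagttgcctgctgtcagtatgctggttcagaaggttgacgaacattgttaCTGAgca
Snord59a: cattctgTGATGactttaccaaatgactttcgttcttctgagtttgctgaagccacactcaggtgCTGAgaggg
Gm24452: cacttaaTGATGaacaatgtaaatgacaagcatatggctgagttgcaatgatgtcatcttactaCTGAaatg
Gm22455: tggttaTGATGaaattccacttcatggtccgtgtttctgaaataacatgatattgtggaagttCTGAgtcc
Rnu3b4: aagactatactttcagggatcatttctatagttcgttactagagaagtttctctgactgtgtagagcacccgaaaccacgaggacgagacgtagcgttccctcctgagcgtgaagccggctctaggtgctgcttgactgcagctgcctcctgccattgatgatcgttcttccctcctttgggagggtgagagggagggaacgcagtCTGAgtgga
In box H/ACA members and those with the same letters, capitals mark ANANNA in the middle of the gene, the form of the H box, and ACA within the last 7 bases:
Snora70: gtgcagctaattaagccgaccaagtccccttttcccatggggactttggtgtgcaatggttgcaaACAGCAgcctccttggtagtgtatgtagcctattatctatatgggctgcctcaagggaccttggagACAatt
Gm24616: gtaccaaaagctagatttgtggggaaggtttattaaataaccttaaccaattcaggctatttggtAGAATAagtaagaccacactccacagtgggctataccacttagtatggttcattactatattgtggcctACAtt

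Snord49b lies at chr11:62603079-62603150, plus strand, in an intron of 2410006H16Rik. Snord16a (chr9:64175423-64175521, plus strand) and Gm22455 (chr9:64177123-64177193, plus strand) both lie within Rpl4. Snord59a lies at chr10:128084143-128084216, plus strand, in an intron of Atp5b, and Gm24452 at chr19:8724531-8724602, plus strand, within the noncoding gene Snhg1. Snora70 (chrX:74272484-74272620, plus strand) lies within Rpl10 and Gm24616 (chr16:23111617-23111755, plus strand) within Eif4a2. Rnu3b4 lies at chr11:87462286-87462500, plus strand, inside Tex14, a gene under 1 FPKM in all libraries.

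The letters separated the named classes. Both C and D letters were found in 24 of the 29 box C/D members, and the 5 without both were the 4 Rnu3b genes and Snord118, which encodes U8. H and ACA letters were found in 12 of the 13 box H/ACA members, the exception being Snora78, whose middle lacks ANANNA. Of the 31 Gm members, 18 held the H and ACA letters and 9 the C and D letters, with 1 (Gm26109) counted in both and 5 in neither. Over all 1507 snoRNA genes, 23.1% held the C and D letters and 38.4% the H and ACA letters. A match shows that the letters are there and nothing about function.

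Several members could not be told from others by sequence. Rnu3b1, Rnu3b2, Rnu3b3 and Rnu3b4 have 1 identical sequence of 215 bases, and each has a second entry at the same place with 1 base more. Gm22579 and Gm24539 were identical over 133 bases, with Gm24095 differing from them at 1 aligned base, and Gm22615 and Gm23713 were identical over 70. In all, 20 members shared a stretch of 50 bases with a gene elsewhere and 10 had a second small-RNA entry at the same place. The second entries held between 0.000456% (Snord80) and 69.9% (Snora19, whose second entry is a miRNA gene) of the summed level of both. The values of these members depend on how the authors' software divided shared reads, and 49 members had neither problem. A gene on the opposite strand covered 7 members, and since the strand setting of the counting is not stated, reads of the 2 strands cannot be told apart there.

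The libraries did not contribute evenly to the range of the values. oEV-EMT replicate 1 held the highest value of the 6 libraries for 40 of the 73 genes, 54.8% of them against 37.4% of all 11924 genes tested. oEV-ctrl replicate 1 held the lowest value for 35 genes, 47.9% against 29.2% of all genes. The summed level of the 73 genes was 523.2, 350.6 and 339.5 FPKM in oEV-EMT replicates 1 to 3, and 210.3, 268.8 and 281.9 FPKM in oEV-ctrl replicates 1 to 3. This sum did not overlap between the groups and made up 0.0136% to 0.0405% of the FPKM of a library. Read depth is not given in the table, so counting error could not be computed.

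**Figure D1:**
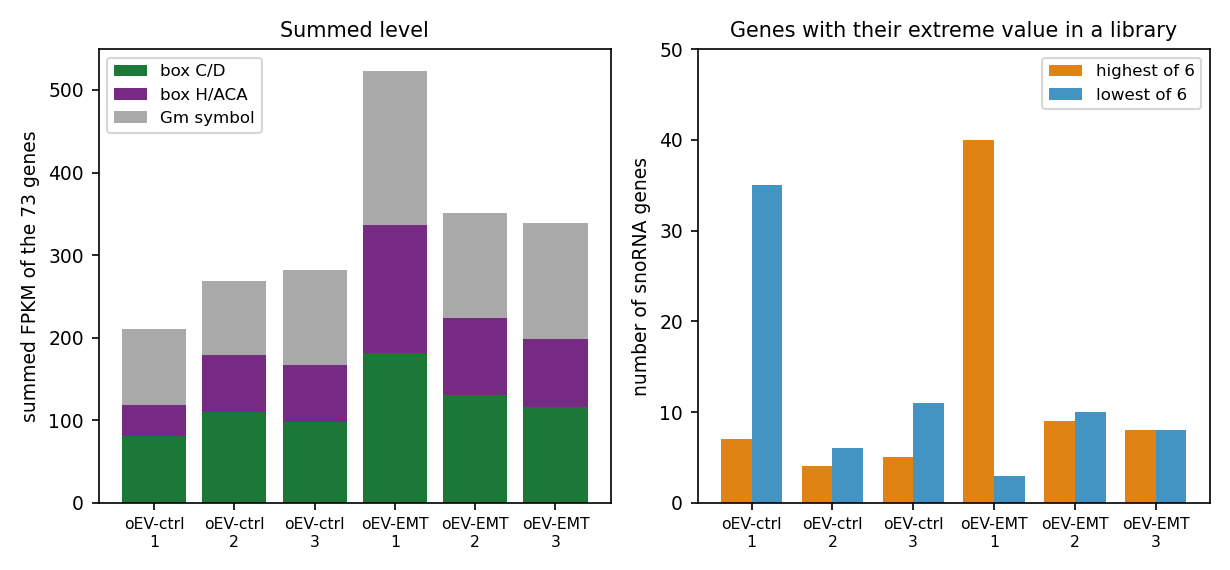
Left, the summed FPKM of the 73 snoRNA genes in each library, with bars starting at 0 and split into box C/D, box H/ACA and Gm symbols. Right, the number of these genes that had their highest or lowest value in each library, with oEV-EMT replicate 1 highest for 40 genes and oEV-ctrl replicate 1 lowest for 35.

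No snoRNA gene passed the test between the groups. Differences were fitted by limma on log2(FPKM + 1) over all 11924 genes that met the same level filter, with thresholds of 0.05 on the Benjamini-Hochberg adjusted p and 1 on the absolute log2 fold change. Of the genes tested, 0 (0%) passed both, and the smallest adjusted p among the snoRNAs was 0.160, for Snord55. At an unadjusted p of at most 0.05, 19 of the 73 were higher in oEV-EMT and 2 lower, against 12.8% and 2.55% of all genes tested. In 20 snoRNA genes all 3 oEV-EMT libraries lay above all 3 oEV-ctrl libraries and in 1 below, against 18.1% and 4.34% of all genes. Both counts of higher genes include Gm24452 and Gm24044, which reached 1 FPKM in every oEV-EMT library and in none of the oEV-ctrl libraries, so that the level rule itself separated their groups. Over the 71 others, 17 were higher and 2 lower at that p, against 12.5% and 2.47% of all genes without those of this kind. Among them 18 lay above without overlap and 1 below, against 17.6% and 4.23%. The split by direction depended on the setting, since median-of-ratios scaling gave 15 higher and 5 lower, a replicate block 21 and 5, and library quality weights 21 and 7. Without oEV-ctrl replicate 1 it was 10 higher and 3 lower. The shares over all genes are not given for these settings, so these counts cannot be set against all genes. With median-of-ratios scaling the median log2 fold change over all genes also moved, from 0.17 to 0.01. For any 1 gene an exact two-sided permutation test over 3 against 3 libraries cannot go below p = 0.1, which the 21 members without overlap reached.

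The median snoRNA lay above the median gene, by an amount that changed with the members and libraries counted. The median snoRNA log2 fold change was 0.41, against 0.17 over all genes tested, and 56 of 73 lay above 0, against 70.1% of all genes. Relative to the median of all genes, the median of the snoRNAs was thus 0.24. Without Gm24452 and Gm24044 the median was 0.32, or 0.15 relative to all genes, and 54 of 71 lay above 0. The SD of the median snoRNA level between single libraries of 1 group was 0.26 on the log2 scale. It was not taken relative to all genes, so it also holds shifts shared by a whole library. Nor is it the spread of a difference between means of 3 libraries, so it cannot decide whether either difference exceeds the spread. Without oEV-EMT replicate 1 the median fell to 0.29 and without oEV-ctrl replicate 1 to 0.26, or 0.15 and 0.11 relative to all genes. The fold changes are on the log2(FPKM + 1) scale, which understates the difference of genes near 1 FPKM.

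Box C/D and box H/ACA members lay close together. The median log2 fold change was 0.43 over the 29 box C/D members and 0.57 over the 13 box H/ACA members, with 22 and 12 above 0. At an unadjusted p of at most 0.05, 10 box C/D members were higher and 1 lower, while 3 box H/ACA members were higher and 0 lower. Of all genes tested, 70.1% lay above 0, and 12.8% were higher and 2.55% lower at that p. The Gm members had a median of 0.28, with 6 higher and 1 lower, or 0.19 with 4 higher and 1 lower without Gm24452 and Gm24044. When Gm members with a class's letters were counted in that class, the medians became 0.46 over 37 box C/D and 0.25 over 30 box H/ACA genes, so the order of the classes depended on the Gm genes. Levels per length were also alike, with a median of 3.12 FPKM for box C/D and 3.98 FPKM for box H/ACA members. Among other small RNAs, the 36 miRNA genes tested had a median of −0.28 and the 16 snRNA genes a median of 0.09.

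**Figure D2:**
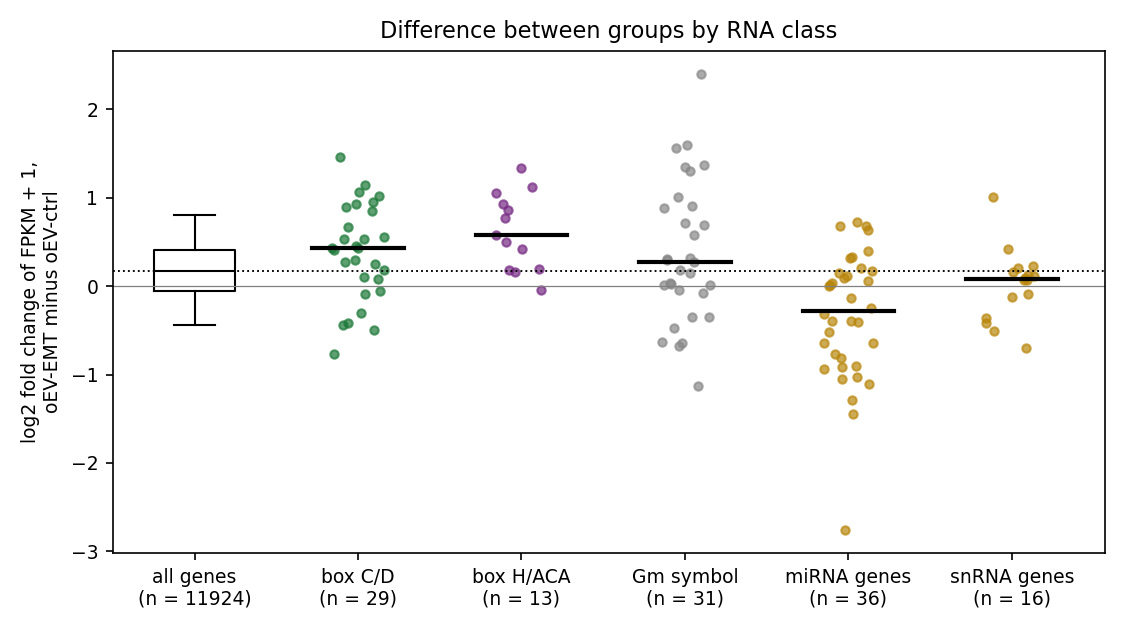
Log2 fold change of FPKM + 1 (oEV-EMT minus oEV-ctrl) for each snoRNA member by class and for the miRNA and snRNA genes tested, as points with thick bars at the medians. The box plot gives all 11924 genes tested (median, quartiles, whiskers at the 5th and 95th percentiles) and the dotted line their median of 0.17, below the medians of 0.43, 0.57 and 0.28 of the 3 snoRNA classes.

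The 3 snoRNAs with the smallest p in the higher direction were box C/D genes. Snord55 was at 5.95, 6.28 and 4.698 FPKM in oEV-EMT replicates 1 to 3 and at 2.68, 2.05 and 3.03 FPKM in the oEV-ctrl libraries. Every oEV-EMT library lay above every oEV-ctrl library, and the log2 fold change was 0.89 (SE 0.22), with an adjusted p of 0.16 in limma.

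Snord49b stood at 12.8, 9.79 and 9.06 FPKM in oEV-EMT and at 5.43, 5.75 and 4.82 FPKM in oEV-ctrl. The lowest oEV-EMT library was well above the highest control, the log2 fold change was 0.86 (SE 0.22), and the adjusted p in limma was 0.164. The noncoding host, 2410006H16Rik, had a log2 fold change of similar size, 0.74. The other snoRNAs of that host differed from it: Snord49a, with 4.74, 2.67 and 0.941 FPKM against 0.188, 0.835 and 1.06, had 1.06, whereas Snord65, with 3.45, 2.73 and 1.796 FPKM against 2.64, 2.79 and 1.73, had 0.10. Both of these overlapped between the groups.

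Snord35b was at 3.85, 2.798 and 4.17 FPKM in oEV-EMT and at 0.0718, 0.349 and 2.16 FPKM in oEV-ctrl. Its groups did not overlap, but oEV-ctrl replicate 3 was close to the lowest oEV-EMT library and the other controls were under 1 FPKM. The log2 fold change was 1.46 (SE 0.37) and the adjusted p in limma 0.164. Without oEV-ctrl replicate 3 the log2 fold change was 1.92 and the gene passed both thresholds, the only snoRNA to do so there.

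Gm24452, with C and D letters and within Snhg1, had the largest log2 fold change of the set. It was at 12.4, 4.17 and 1.502 FPKM in oEV-EMT and at 0.0605, 0.0577 and 0.0443 FPKM in oEV-ctrl. The controls were all near 0 and the oEV-EMT libraries spread widely, with a log2 fold change of 2.40 (SE 0.56) and an adjusted p of 0.164 in limma. The gene met the level rule only through the oEV-EMT libraries, as did Gm24044, so their groups could not overlap and their p is no support. Gm25894, the other member within Snhg1, was at 2.88, 2.55 and 1.21 FPKM in oEV-EMT and at 0.276, 2.39 and 2.63 FPKM in oEV-ctrl, and its groups overlapped.

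Gm24044 lies within Rpsa and held neither pair of letters. Its levels were 1.09, 1.26 and 1.197 FPKM in oEV-EMT and 0.728, 0.234 and 0.146 FPKM in oEV-ctrl, without overlap, and the log2 fold change was 0.69. Snord16a, a box C/D gene within Rpl4, was at 15.9, 13.5 and 11.5 FPKM in oEV-EMT and 3.44, 7.097 and 9.302 FPKM in oEV-ctrl. All oEV-EMT libraries lay above the controls, of which replicate 1 was the lowest, and the log2 fold change was 1.02 (SE 0.31) with an adjusted p of 0.1902 in limma.

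In this fit 2 snoRNAs were lower in oEV-EMT at an unadjusted p of at most 0.05. Snord59a, a box C/D gene of an Atp5b intron, was at 1.16, 0.86 and 1.31 FPKM in oEV-EMT and at 2.26, 2.78 and 2.76 FPKM in oEV-ctrl. It was the only snoRNA with all oEV-EMT libraries below all controls, with a log2 fold change of −0.77 (SE 0.20) and an adjusted p of 0.164 in limma. Its host, which encodes the beta subunit of mitochondrial ATP synthase, had a log2 fold change of 0.10.

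Gm24616, with H and ACA letters and within Eif4a2, was at 3.07, 3.15 and 2.05 FPKM in oEV-EMT and at 2.95, 6.21 and 6.39 FPKM in oEV-ctrl. The first control overlapped with the oEV-EMT libraries, and the log2 fold change was −0.68 (SE 0.29) with an adjusted p of 0.299 in limma. Eif4a2, a translation initiation helicase gene, was at 115, 166 and 155 FPKM in oEV-EMT and at 57.6, 107 and 116 FPKM in oEV-ctrl, and its log2 fold change was 0.68. Another member within Eif4a2, Gm26447, differed in the same direction as the host, at 10.8, 5.47 and 4.695 FPKM against 0.00569, 3.81 and 4.23 and a log2 fold change of 1.37. The last, Gm24201, overlapped between the groups, with a log2 fold change of 0.01.

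The next 4 genes in the lower direction had larger p. Gm22615 was at 6.65, 1.44 and 2.33 FPKM in oEV-EMT and 14.9, 6.21 and 4.7 FPKM in oEV-ctrl, which gave a log2 fold change of −1.13 and an adjusted p of 0.342 in limma. Its second copy Gm23713, of identical sequence in another zinc-finger gene, was at 4.34, 1.61 and 2.67 FPKM against 9.19, 3.63 and 3.03, so reads of the pair cannot be told apart. Gm24095 and Gm25636 had log2 fold changes of −0.64 and −0.48. In all of these the groups overlapped.

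Snord118, which encodes U8 and is needed to make 28S and 5.8S ribosomal RNA, has no host. It was at 2.05, 1.84 and 1.35 FPKM in oEV-EMT and 1.97, 2.72 and 3.55 FPKM in oEV-ctrl. The first control lay within the range of the oEV-EMT libraries, and the log2 fold change was −0.43 (SE 0.23).

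**Figure D3:**
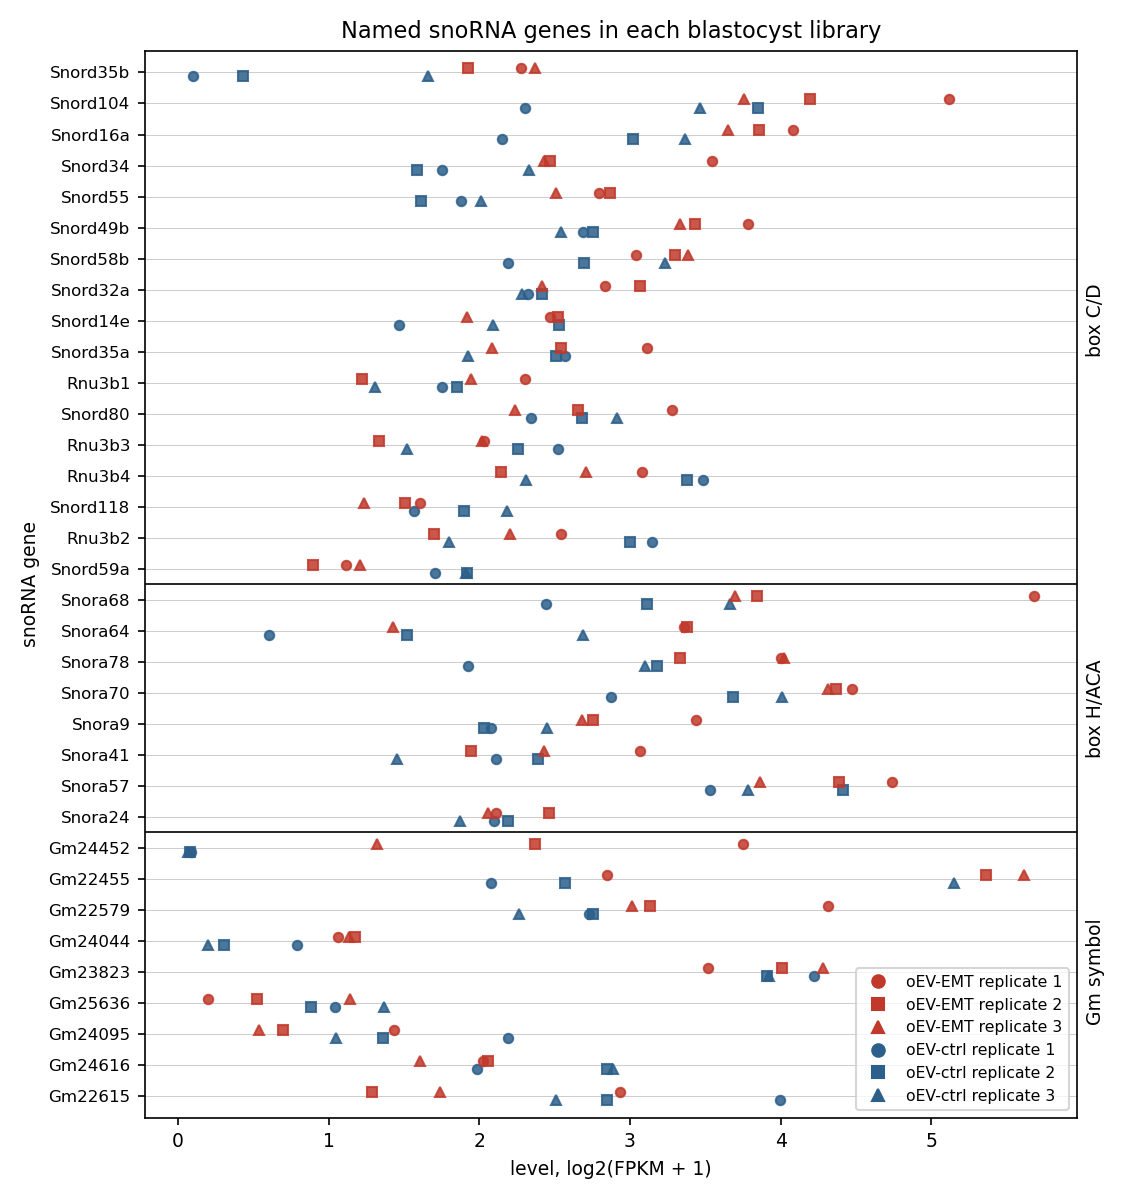
Level of the 34 snoRNA genes named by rule in each library, as log2(FPKM + 1), with red marks for oEV-EMT, blue for oEV-ctrl and 1 shape per replicate number. Genes are ordered by log2 fold change within each class. Snord55, Snord49b and Snord59a show separate groups, while the 4 Rnu3b genes overlap.

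The most abundant snoRNA genes did not all follow the group. Gm22455 had the highest mean, 22.8 FPKM over the 6 libraries, and was at 6.21, 40.1 and 48.03 FPKM in oEV-EMT and 3.22, 4.93 and 34.5 FPKM in oEV-ctrl. The high libraries were oEV-EMT replicates 2 and 3 and oEV-ctrl replicate 3, so the groups overlapped despite a log2 fold change of 1.34 (SE 1.18). Gm23823, with H and ACA letters and no host on its strand, was at 10.5, 15.1 and 18.4 FPKM against 17.6, 14.01 and 14.2 and differed little, with a log2 fold change of −0.08. Gm22579 in Taf1d was at 18.9, 7.75 and 7.09 FPKM against 5.64, 5.76 and 3.81, with no overlap and a log2 fold change of 0.90.

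Snora57 was the most abundant box H/ACA member, at 25.8, 19.98 and 13.6 FPKM in oEV-EMT and 10.6, 20.3 and 12.8 FPKM in oEV-ctrl, with overlap and a log2 fold change of 0.42. Snora68 was at 50.4, 13.4 and 11.99 FPKM against 4.44, 7.67 and 11.7, without overlap. Its log2 fold change was 1.33, and 0.70 without oEV-EMT replicate 1, which was far above all other libraries. Snora70 was more even, at 21.2, 19.6 and 18.9 FPKM against 6.34, 11.8 and 15.1, with a log2 fold change of 0.86 (SE 0.29) and an adjusted p of 0.218 in limma.

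Snora78, within the noncoding gene Snhg9, was at 15.1, 9.09 and 15.2 FPKM in oEV-EMT and 2.804, 8.05 and 7.56 FPKM in oEV-ctrl, and Rps2 runs on the opposite strand there. The groups did not overlap, and the log2 fold change was 1.05. Snora9, within Snhg15, was at 9.82, 5.74 and 5.42 FPKM against 3.23, 3.08 and 4.46, again without overlap, with a log2 fold change of 0.77. The last 3 of the 8 most abundant box H/ACA genes, Snora64, Snora41 and Snora24, overlapped between the groups and had log2 fold changes of 1.12, 0.50 and 0.16.

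Among abundant box C/D genes, Snord104, without a host, was at 33.7, 17.3 and 12.5 FPKM in oEV-EMT and 3.94, 13.4 and 10.02 FPKM in oEV-ctrl. The second control exceeded the lowest oEV-EMT library, and the log2 fold change was 1.15 (SE 0.46). Snord58b within Rpl17 was at 7.23, 8.86 and 9.44 FPKM against 3.57, 5.48 and 8.39, with a log2 fold change of 0.54 and overlap. Snord80 within Gas5 was at 8.72, 5.31 and 3.71 FPKM against 4.08, 5.41 and 6.53, with a log2 fold change of 0.08.

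The snoRNAs known for their part in cutting the ribosomal RNA precursor overlapped between the groups. Some of them, as U14, also guide methylation. The list holds 15 genes, of which 6 entered the set. Their median log2 fold change was −0.36, and 0 of 6 had an unadjusted p of at most 0.05 in limma in either direction. Of all genes tested, 12.8% were higher and 2.55% lower at that p. The 4 U3 genes have 1 sequence, so both figures count that RNA 4 times and the sum of the 4 is the better measure. Rnu3a shares stretches of 50 bases with them but did not meet the level rule and is not in the sum. The sum was 19.3, 8.51 and 15.04 FPKM in oEV-EMT and 25.2, 22.8 and 9.78 FPKM in oEV-ctrl. The groups overlapped, and the difference of mean log2(FPKM + 1) was −0.37. Rnu3b4, Rnu3b2 and Rnu3b3 each had a lower mean in oEV-EMT (−0.41, −0.50 and −0.30) and Rnu3b1 a higher one (0.18). Snord14e, a U14 gene of the Hspa8 introns, was at 4.53, 4.75 and 2.78 FPKM against 1.76, 4.77 and 3.26, with a log2 fold change of 0.27.

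The snoRNAs of the Rpl13a introns, which have been linked to the response of cells to lipid and oxidative stress, gave 3 members. Snord34 was at 10.7, 4.53 and 4.39 FPKM in oEV-EMT and 2.36, 2.0 and 4.04 FPKM in oEV-ctrl, without overlap, and had a log2 fold change of 0.92 (SE 0.34) and an adjusted p of 0.242 in limma. Snord32a was at 6.13, 7.38 and 4.33 FPKM against 4.01, 4.34 and 3.87, with the lowest oEV-EMT library just under the highest control. Snord35a was at 7.66, 4.83 and 3.25 FPKM against 4.94, 4.68 and 2.79, with a log2 fold change of 0.25 and overlap. Another, Snord33, was far below 1 FPKM in all libraries. Rpl13a itself was at 521, 448 and 307 FPKM in oEV-EMT and 631, 424 and 463 FPKM in oEV-ctrl, and its log2 fold change was −0.26. Of the 13 listed snoRNA genes of imprinted clusters, 6 were in the table and all were below 1 FPKM in every library.

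Most host genes that met the level filter were far more abundant per length than the snoRNAs within them. Over the 63 members with a host that met the filter, the mean level of the snoRNA was at the median 1.95% of its host, from 0.0820% (Gm22571 in Rpl4) to 860.3% (Snora78 in Snhg9). In all, 8 members lay above their host, 3 of them among these 63. The 5 with a host below the filter were at 317.2% (Snord89) to 1789% (Rnu3b4) of it. Across these 63 pairs, which share libraries, Spearman's rho was 0.24 between the mean levels and 0.08 between the log2 fold changes of snoRNA and host. Of the 73 members, 25 overlapped an exon of an annotated transcript of the host, in part or whole. For 20 of them it was a transcript with a retained intron. The median log2 fold change was 0.77 over these 25 and 0.29 over the 48 others.

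The fold change of the snoRNA exceeded that of the host in 42 of 63 pairs, by a median of 0.36. The ratio of snoRNA to host was above in all oEV-EMT libraries in 11 pairs and below in 3, against 8.53% and 9.3% of all 258 pairs of a tested gene lying inside another on the same strand. Those 258 include the snoRNA pairs. Without the pairs of Gm24452 and Gm24044, 9 of 61 were above and 3 below, against 8.03% and 8.84% of the 249 pairs left when such genes were set aside throughout. In the 195 pairs whose inner gene was no snoRNA of the set, the median difference was −0.09. The median over the snoRNA pairs was 0.20 without oEV-EMT replicate 1 and 0.23 without oEV-ctrl replicate 1.

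The pairs differed by the kind of host, a division made after the values were seen and therefore given without a test. Of the members, 21 lay within 16 ribosomal protein genes, 31 within other protein-coding genes and 16 within noncoding genes. All 21 within ribosomal protein genes had a log2 fold change above 0, from 0.19 (Snora21 in Rpl23) to 1.595 (Gm24888 in Rpl27a), with a median of 0.86. Their hosts had a median of −0.05 over the same pairs, and the fold change of the snoRNA exceeded that of its host in 21 of 21. Over all 82 ribosomal protein genes tested, the median log2 fold change was −0.02. Among all 11924 genes tested, 70.1% lay above 0. In 9 of the 21 pairs the ratio to the host was above in all oEV-EMT libraries and in 0 below. The shares over all 258 pairs of a gene inside another were 8.53% and 9.3%. The counts of 21 and 9 include Gm24044 in Rpsa, and without it the median log2 fold change was 0.88. The ratio was then above in 8 of 20 pairs, against 8.03% of the 249 pairs left without such genes.

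With 1 library left out, the fold change of the snoRNA still exceeded that of its host in most pairs with ribosomal protein genes. It did so in 19 of 21 without oEV-EMT replicate 2, in 20 of 21 without oEV-ctrl replicate 1, and in 21 of 21 in each of the other 4 fits. The median difference from the host was lowest without oEV-ctrl replicate 1, at 0.53, where the median log2 fold change of these snoRNAs was 0.61. Without oEV-EMT replicate 1 these medians were 0.64 and 0.70. Of the 21 members, 9 had an unadjusted p of at most 0.05 in limma, all higher in oEV-EMT (8 of 20 without Gm24044), and 0 passed after adjustment. Among all genes tested, 12.8% were higher and 2.55% lower at that p.

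For the 31 members within other protein-coding genes the median was 0.01 (−0.10 with median-of-ratios scaling), and for the 16 within noncoding genes it was 0.39 (0.32 without Gm24452). The 31 count repeated sequences more than once, mostly with lower values. They hold the 4 Rnu3b genes within Tex14 (median −0.36) and 2 members each within Zfp934 (−0.89) and Zfp808 (−0.49). Gm22579, identical to Gm24539 of Zfp808, lay at 0.90. The contrast with ribosomal protein hosts depends in part on these copies. The median log2 fold change of the noncoding hosts was 0.47 over the 15 pairs. Of the 10 noncoding hosts tested, 8 lay above 0, as Snhg15 (0.87, with Snora9 at 0.77) and Rab26os (0.80, with Snord60 at 0.56). The other 2, Gas5 (−0.41) and Snhg1 (−0.07), hold 5 of the members and lay below 0, whereas all 5 snoRNAs within them lay above. Among all genes tested, 70.1% lay above 0. The direction of Gm24452 was fixed by the level rule, which it met only through oEV-EMT. The 3 members within Gas5 (0.08, 0.15 and 1.56) and Gm25894 within Snhg1 (0.32) all overlapped between the groups.

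**Figure D4:**
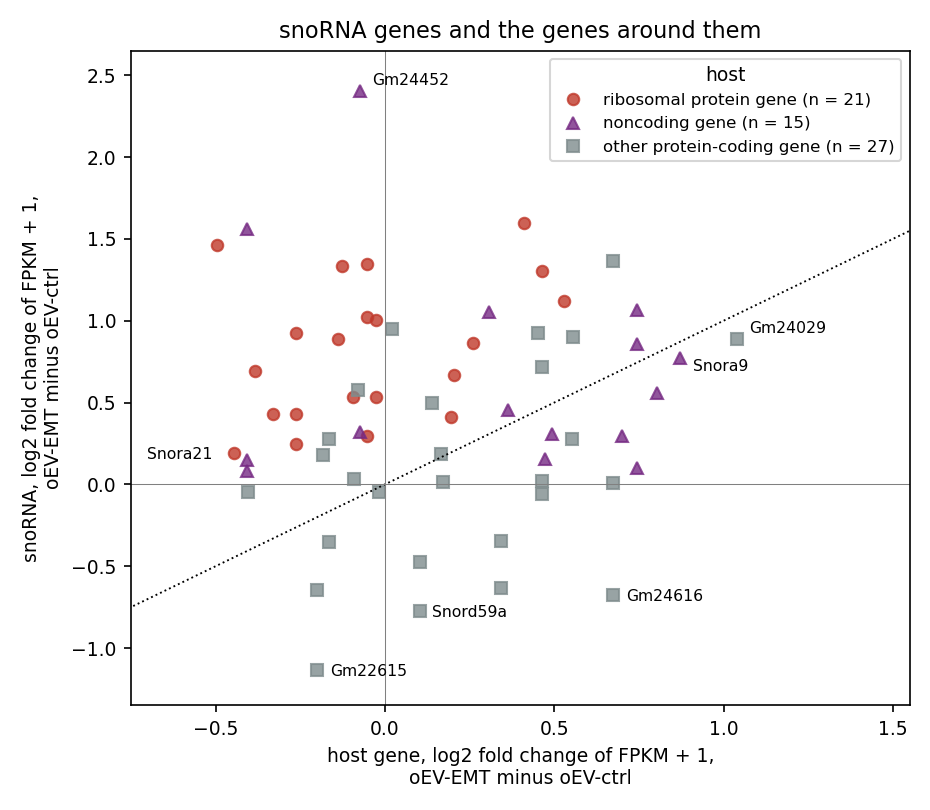
Log2 fold change of FPKM + 1 (oEV-EMT minus oEV-ctrl) of each snoRNA against that of its host gene for the 63 pairs with both tested, 1 point per snoRNA, coloured by kind of host. On the dotted line both are equal. The 21 points of ribosomal protein hosts all lie above the line, from 0.192 to 1.595 on the vertical axis.

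Members within 1 host differed among themselves. The 3 members within Rpl4 ranged 15.1-fold in mean level, from 1.52 FPKM (Gm22571) to 22.8 FPKM (Gm22455), with log2 fold changes of 0.30 to 1.35. Gm22455 and Gm22571 were 79.5% identical. Those within Eif4a2 ranged from −0.68 to 1.37. The 3 within Gas5, a noncoding gene whose introns are packed with box C/D genes, ranged from 0.08 (Snord80) to 1.56 (Gm22489). Gm22489 was at 15.97, 0.119 and 3.84 FPKM in oEV-EMT and 1.91, 0.112 and 0.104 FPKM in oEV-ctrl, with its high values in oEV-EMT replicates 1 and 3. Gas5 was at 114, 173 and 76.3 FPKM against 104, 201 and 167, with a log2 fold change of −0.41.

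The proteins that package snoRNAs were expressed in all libraries. Of the 4 box C/D core proteins, 1 had an unadjusted p of at most 0.05 in limma: Snu13, which binds the kink of the C and D boxes, at 229, 234 and 289.5 FPKM in oEV-EMT and 149, 181 and 210.5 FPKM in oEV-ctrl, without overlap and with a log2 fold change of 0.48 (adjusted p 0.299). Fbl, the gene of fibrillarin, had a log2 fold change of 0.03. None of the 4 box H/ACA core proteins had such a p, and the gene of dyskerin, Dkc1, had a log2 fold change of 0.34. The median was 0.32 over the first 4 and −0.08 over the second 4, against 0.17 over all genes tested. Of all genes tested, 12.8% were higher and 2.55% lower at that p, and lists of 4 genes are too short to set against these shares. By the mean of all 6 libraries the most abundant H/ACA gene was Nop10, at 175 ± 18.9 FPKM in oEV-EMT and 231 ± 54.7 FPKM in oEV-ctrl (SD, n = 3).

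Of 14 assembly factors of snoRNA particles, 2 were higher at an unadjusted p of at most 0.05 and 0 lower, a share close to the 12.8% of all genes that were higher at that p. Their median log2 fold change was 0.32, against 0.17 over all genes tested. Coil, the gene of the Cajal body protein coilin, was at 98.5, 57.4 and 46.6 FPKM in oEV-EMT and 25.1, 30.2 and 29.9 FPKM in oEV-ctrl. Its log2 fold change was 1.15 (SE 0.28), with an adjusted p of 0.152 in limma. Ruvbl2, a helicase of the assembly complex, had 0.65. The chaperone gene Hsp90aa1 was the most abundant, at 2799 ± 229.8 FPKM in oEV-EMT and 3499 ± 152 FPKM in oEV-ctrl (SD, n = 3).

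Of 16 genes of snoRNA maturation and turnover, 1 was higher at that p and 0 lower, with a median of 0.06. That gene was Exosc10, a nuclear exosome nuclease that trims snoRNA ends, with a log2 fold change of 0.67. Of 14 noncoding host genes tested from a list of 21, 7 were higher at that p and 0 lower, with a median of 0.48, against 12.8% higher, 2.55% lower and a median of 0.17 over all genes tested. The largest log2 fold changes among them were those of Zfas1 (1.04), Snhg20 (0.94) and Snhg15 (0.87, adjusted p 0.129 in limma), followed by Snhg17 (0.75), Snhg5 (0.71), Snhg6 (0.70) and Epb41l4aos (0.49). Below 0 lay Snhg3 (−0.41), Gas5 (−0.41) and Snhg1 (−0.07). No gene of these lists passed the thresholds after adjustment.

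Markers of the blastocyst lineages were present in both groups. The 7 trophectoderm genes summed to 3123 to 4734 FPKM in oEV-EMT and 3075 to 4826 FPKM in oEV-ctrl, with 1 higher at an unadjusted p of at most 0.05. The 5 epiblast genes summed to 82.0 to 102.6 FPKM and 34.98 to 63.6 FPKM, without overlap, with 3 of 5 higher at that p (Pou5f1, Nanog and Fgf4), against 12.8% of all genes. The other two, Sox2 and Klf4, had log2 fold changes of −0.32 and 0.11. Of the 4 primitive endoderm genes 2 were higher (Gata4 and Sox17), while Gata6 (−0.19) and Pdgfra (0.08) were not, and the sums of 26.7 to 40.9 FPKM and 28 to 33.9 FPKM overlapped. The 8 cumulus and granulosa genes were all under 1 FPKM in every library, 5 of them listed at 0. Of the 4 oviduct epithelium genes only Krt7 was at or above 1 FPKM, and its groups overlapped. The part of the epiblast marker levels in the snoRNA values was not tested.

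Close to the level rule, values were low and scattered. Ordered by the level that the rule turns on, the lowest of each gene's 3 highest values, the members just inside were Snord89 (1.02 FPKM), Gm24698 (1.04 FPKM) and Snord49a (1.06 FPKM), and the genes just outside were Gm23202 (0.950 FPKM), Snord98 (0.886 FPKM) and Gm24620 (0.824 FPKM). All 6 libraries reached 1 FPKM in 43 of the 73 members, 5 libraries in 11, 4 in 6 and exactly 3 in 13. Among the 43, the median log2 fold change was 0.43 and 34 lay above 0.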

How the data were processed

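Polyadenylated RNA of 10 pooled blastocysts per library was sequenced by the authors. The deposited table gives FPKM for 55774 gene entries in 6 libraries, 287 of them unannotated assembled loci. The submitters' processing notes name mm10 and StringTie, which per the study's methods assembled the mapped reads on the reference. The annotation release, the handling of multiply mapped reads and strand, and the read depth are not given in the sources used here. Values of repeated genes may therefore depend on how reads were divided, and genes shorter than the fragments have uncertain FPKM.

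Identifiers were matched to GENCODE M21 (55230 of 55774). Host genes were the shortest gene around a member on its strand. Genes with at least 1 FPKM in at least 3 libraries were fitted with limma 3.58.1 in R 4.3.3 on log2(FPKM + 1), with trended, robust variance and Benjamini-Hochberg adjustment over 11924 genes. The test was chosen for normalized values, and the fit was checked on simulated data. Tables and plots were made with Python 3.11.15. All 6 value columns were used.

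Alternatives were other scalings, filters, pseudocounts and variance models, a replicate block, longest hosts, members outside exons, and each library left out. Members, lists and tests were chosen with earlier results of these data known. Named genes were the most abundant 8 box C/D, 8 box H/ACA and 4 Gm members, the 6 with the smallest p in each direction, those of the listed sets, the 3 on either side of the level rule, and list genes with the highest level or an unadjusted p of at most 0.05. Other genes named (as Gm26109, Snora21, Gm24888, Snord49a, Snord65, Gm24201, Gm26447, Gm23713, Gm22571, Gm22489, Gm25894, Snora19, Snord60 and the lineage markers) were picked after their values were seen. The set of 35 replication-dependent histone genes, whose mRNAs lack a poly(A) tail, had a median log2 fold change of 0.20. At that p 7 of the 35 were higher and 6 lower, against 12.8% and 2.55% of all genes tested. Without overlap, 10 lay above and 9 below, against 18.1% and 4.34%. Some host genes and sequences are not reported here.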

Additional observations from a re-analysis of the deposited data

How the results depend on the processing

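The count of snoRNAs past both thresholds was 0, as in most alternatives, but 1 with library quality weights (Gm24452, which met the level rule only through oEV-EMT, where 104 genes passed overall) and 1 without oEV-ctrl replicate 3 (Snord35b, where 17 passed). Leaving out each library in turn gave 0 to 1. The 21 members at an unadjusted p of at most 0.05 became 13 to 24 with 1 library left out, the 13 without oEV-ctrl replicate 1. The shares over all genes are not given for those fits. The 21 became 11 among the 48 members outside exons of other genes, where fewer members were counted. Members without overlap fell from 21 to 11 among the same 48. The share fell as well as the number. Of the 25 members that overlapped an exon of the host, 9 were higher and 1 lower at that p, and in 10 the groups did not overlap, with oEV-EMT above. Without Gm24452 and Gm24044 these were 7, 1 and 8 of 23. Among all genes tested, 12.8% were higher, 2.55% lower and 18.1% above without overlap. The box H/ACA median of 0.57 became 0.91 with a pseudocount of 0.1 and 0.25 with Gm members counted by their letters, which was chosen after seeing the data. Leaving out Gm24452 and Gm24044, also chosen after seeing the data, took the median relative to all genes from 0.24 to 0.15. This and the other 122 of 130 values stayed within 1.5 times the count or 1 SD between libraries. For the medians that SD was 0.24 to 0.28, a wide limit, and it was not taken relative to all genes. A median of 0.24 relative to all genes could fall to 0 and still lie within it. That median was 0.11 without oEV-ctrl replicate 1 and 0.13 with quality weights. With another scaling the median over all genes moved from 0.17 to between 0.01 (median of ratios) and 0.27 (sum without the assembled loci), and the snoRNA median relative to it stayed between 0.187 and 0.245. The median over the members was 0.26 to 0.52 with 1 library left out.

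Of 503 single-gene log2 fold changes, 13 changed sign, all small ones, and the cause was not tested. Gm23823 became 0.00924 (sum of 1000000), 0.0228 (sum without the assembled loci) and 0.0366 (quality weights), and ranged from −0.25 to 0.129 with 1 library left out. Rnu3b1 became −0.105 with quality weights and ranged from −0.0571 to 0.485. Snord14e ranged from −0.00644 to 0.525, Snord35a from −0.0187 to 0.495, and Snord80, which became −0.0885 (median of ratios) and −0.0842 (quality weights), from −0.199 to 0.324.

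Libraries of 1 replicate number deviated together only weakly, with correlations of 0.12, −0.04 and 0.04. Those of different numbers ranged from −0.13 to 0.12. With 3 libraries a group, this check cannot show whether libraries of 1 number belong together. A replicate block left the medians at 0.41, 0.43, 0.57 and 0.36 and the snoRNA count at 0, with 26 members at an unadjusted p of at most 0.05 and 21 genes of the whole table past both thresholds.

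With 3 libraries a group and levels near 1 FPKM, small differences were not detectable, and no depth was available to set counting error apart from the spread between libraries.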
